A study of Sus scrofa with 16 samples.

Results

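The nuclear genes that encode subunits of respiratory complexes I to IV were followed in the hippocampus of 16 preterm pigs. Members were chosen by gene symbol alone, through the pig Ensembl identifiers of the expression table: the NDUFA, NDUFB, NDUFC, NDUFS and NDUFV genes, SDHA to SDHD, the UQCR genes, COX4I, COX5, COX6, COX7 and COX8 genes and CYC1, without the NDUFAF assembly factors. The symbol table held 60 identifiers of this kind, of which 37 had a row of expression values and 23 were not analysed here, among them CYC1, NDUFV2, NDUFS3, NDUFS8 and COX6A1. SDHA and NDUFB10 were listed at 0 in all 16 pigs and fell under the minimum mean of 0.5 FPKM, which left 35 members among the 13590 distinct rows tested. These were 19 subunits of complex I (3 core and 16 accessory), 3 of complex II, 6 of complex III and 7 of complex IV. FPKM, fragments per kilobase of transcript scaled to the mapped fragments of each library, allows levels to be compared between genes of different length.

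The pigs were crosses of Danish Landrace, Large White and Duroc, delivered preterm by cesarean section and fed human donor milk together with parenteral nutrition, under which some developed necrotizing enterocolitis (NEC) without further induction. The comparison asked whether gut lesions went along with altered gene expression in the brain. No NEC pigs (n = 5) had no macroscopic lesion in any gut region, Co-NEC pigs (n = 5) had severe lesions in the colon only, and Si-NEC pigs (n = 6) had severe lesions in the small intestine, with or without the colon. RNA came from the left hippocampus of 1 pig per library, the No NEC and Co-NEC groups each held 2 females and 3 males and the Si-NEC group 3 of each, and the labels do not give the litter. The deposited table holds no read counts, so the depth per pig is unknown.

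Respiratory complexes sit in the inner mitochondrial membrane. Complex I takes electrons from NADH and complex II takes them from succinate, both hand them to ubiquinone, complex III passes them on to cytochrome c and complex IV to oxygen, and complexes I, III and IV pump protons that drive ATP synthase. Neurons depend heavily on this pathway for ATP. The subunits followed here are made from nuclear genes, whereas other subunits of complexes I, III and IV are encoded by mitochondrial DNA and are not among the members.

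The members were among the more abundant transcripts of the tissue. The mean over the 16 pigs was over 20 FPKM for 34 of the 35 members, and 30 of 35 stood above the 90th percentile of all rows tested. By complex, the median of these means was 92.5 FPKM for complex I, 71.6 for complex II, 153 for complex III and 494 for complex IV, with complex IV subunits the most abundant and complex II subunits the least. NDUFA4, once counted as a complex I subunit and now placed in complex IV, was the highest of all at 936 FPKM. Within complex I, NDUFB1 of the membrane arm was the highest at 629.8 FPKM, and NDUFA6, an accessory subunit, the lowest member of all at 7.54 FPKM. Within complex III, UQCR11 reached 361 FPKM and UQCRC2, a core protein of the complex, 29.9 FPKM. Within complex II, the membrane anchor SDHD stood at 77.4 FPKM and the other anchor, SDHC, at 33.8 FPKM.

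**Figure D1:**
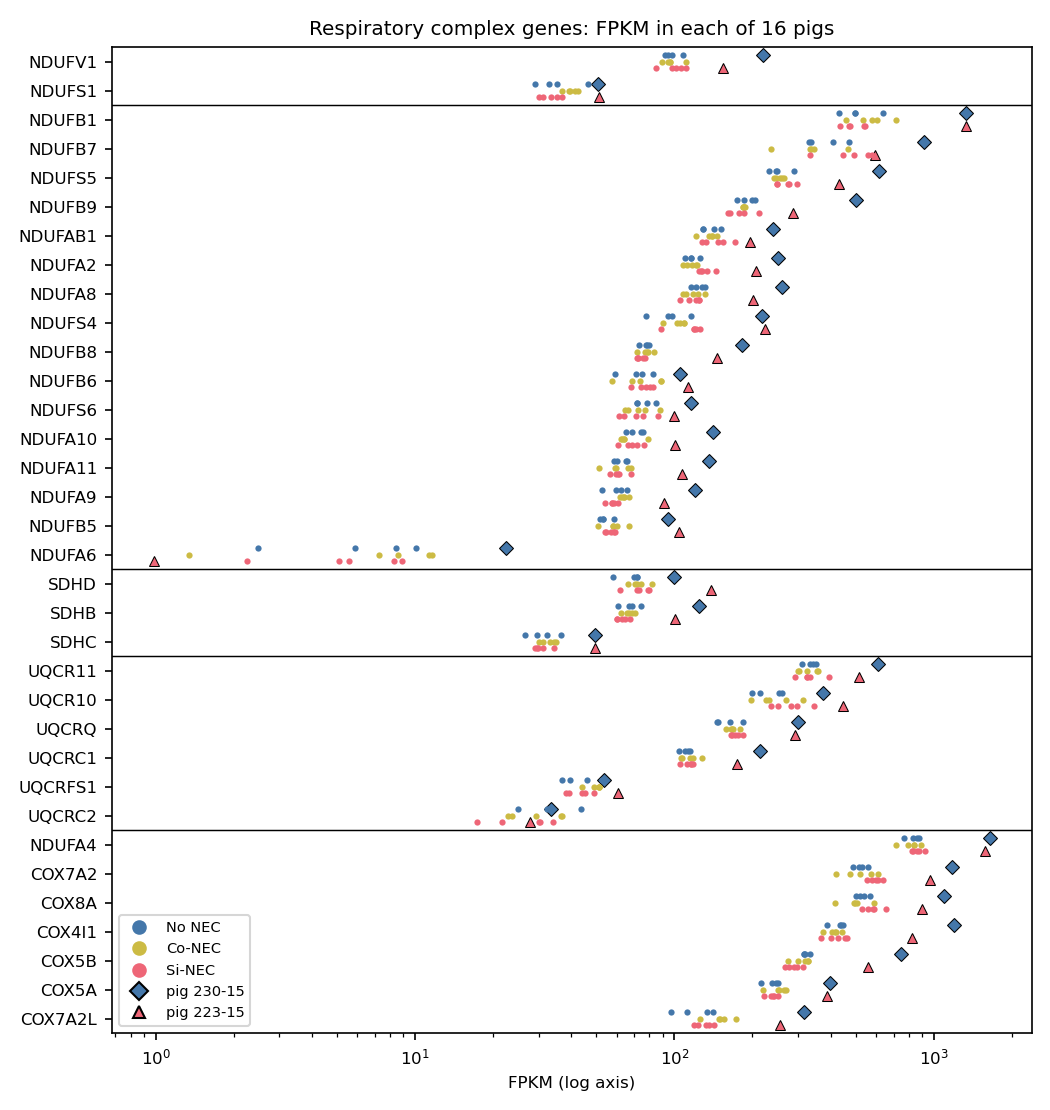
FPKM (log axis) of 34 of the 35 members in each of the 16 pigs, with groups by colour and horizontal lines setting off complex I core, complex I accessory, complex II, complex III and complex IV subunits from top to bottom. The No NEC pig 230-15 (diamond) and the Si-NEC pig 223-15 (triangle) are the 2 highest pigs for 32 of the 34 members plotted, and the other 14 pigs lie close together in each row except for NDUFA6, NDUFB7 and UQCRC2.

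Before any group was compared, 2 pigs stood apart. Summed FPKM over all genes was 864931 in No NEC pig 230-15, a male, and 823320 in Si-NEC pig 223-15, a female, against 544629 to 645197 in the other 14 pigs. The median correlation of log2(FPKM + 0.5) with the other pigs was 0.902 and 0.933 for this pair, against 0.949 to 0.96 for the rest, and no Co-NEC pig stood apart. Markers of neurons, astrocytes, oligodendrocytes and hippocampal neurons were present in all groups, with summed levels of the 7 neuron markers measured (SYT1, NEFL, STMN2, SLC17A7, GAD1, GAD2, MAP2) of 2124 to 3138 FPKM in No NEC, 2335 to 2479 in Co-NEC and 2075 to 2717 in Si-NEC pigs. In bulk tissue, fewer cells of a type and less RNA per cell cannot be told apart. The group comparisons of the members below are therefore also given without both pigs.

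In these 2 pigs the respiratory genes were higher nearly across the board. The members' FPKM in pig 230-15 was a median 1.97 times the median of the other 4 No NEC pigs, and in pig 223-15 a median 1.61 times the median of the other 5 Si-NEC pigs. The same ratios over all genes tested were 1.11 and 1.1. Of the 35 members, 30 in pig 230-15 and 27 in pig 223-15 were at least 1.5-fold above the median of their own group, against 3499 of 13503 and 2915 of 13476 genes overall. Among the other 14 pigs, at most 1 member per pig was. The 2 pigs were the 2 highest of the 16 for 33 of 35 members (94.3%) and for 23.2% of all genes tested. The members together held 1.63% and 1.44% of all FPKM in these pigs and 1.04% to 1.18% in each of the other 14, so their share was larger even after the larger sums were taken into account.

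Core subunits of complex I showed the pattern to different degrees. NDUFV1, which carries the flavin that oxidises NADH, was at 219.6 FPKM in pig 230-15, and at 94.7, 108, 91.8 and 98.0 FPKM in pigs 228-15, 253-15, 540-14 and 550-14 of the same group. Its 5 Co-NEC values ran from 89.9 to 111 FPKM. Its Si-NEC values had a lowest of 84.8, a median of 103 and a highest of 153 FPKM, the last in pig 223-15. Apart from the pair, then, the 3 groups lay over each other. NDUFS1, the largest iron-sulfur subunit, showed a smaller gap, with 50.8 and 51.1 FPKM in the pair against 29.0 to 46.3 FPKM in the other 14 pigs.

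Among the 16 accessory subunits of complex I, the median ratio to the own group was 2.16 in pig 230-15 and 1.61 in pig 223-15. NDUFB1 had nearly the same value in both pigs, 1335 and 1326 FPKM, with 431 to 717 FPKM in the other 14. NDUFB7, a subunit of the membrane arm, differed between them: 920.2 FPKM in pig 230-15, 2.47 times the median of its group, and 595 FPKM in pig 223-15, 1.20 times. In Si-NEC its 6 values had a lowest of 334, a median of 525 and a highest of 595 FPKM, so pig 223-15 was the highest of its group by little. NDUFA6 was the exception to the pattern. It was at 22.5 FPKM in pig 230-15, the highest of the 16, and at 0.982 FPKM in pig 223-15, the lowest. Its other 14 values spread from 1.34 to 11.6 FPKM, a highest-to-lowest ratio of 8.62, the largest of any member.

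In complex II the median ratio was 1.59 in pig 230-15 and 1.66 in pig 223-15. SDHB, the iron-sulfur subunit that passes electrons on towards ubiquinone, was at 124 and 101 FPKM in the pair, while the other 14 pigs ran from 59.9 to 74.5 FPKM. SDHD was higher in pig 223-15, at 138 FPKM, than in pig 230-15, at 100.1 FPKM, with 57.8 to 81.8 FPKM elsewhere. SDHC did not separate them, at 49.3 FPKM in pig 230-15 and 49.4 FPKM in pig 223-15, against 26.6 to 36.4 FPKM in the other 14. SDHA, the flavoprotein subunit that oxidises succinate, was only listed at 0, so the catalytic subunit of the complex gave no value.

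In complex III the median ratio was 1.71 and 1.54. UQCR11 was at 612 and 517 FPKM in the pair against 292 to 393 FPKM. UQCRFS1, the Rieske iron-sulfur protein, was less set off, at 53.7 FPKM in pig 230-15, 60.6 FPKM in pig 223-15 and 36.8 to 52.4 FPKM in the other 14. UQCRC2 did not follow the others. It was at 33.4 FPKM in pig 230-15, 1.02 times the median of its group, and at 27.8 FPKM in pig 223-15, 0.923 times, and its highest value, 43.8 FPKM, was in No NEC pig 540-14.

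Complex IV had the largest ratios, a median of 2.25 in pig 230-15 and 1.82 in pig 223-15. All 7 of its members were at least 1.5-fold above the own group in both pigs. Its subunits were also the most abundant, and the ratios were not matched for level. Over the 35 members, the log2 ratio was set against the log2 median FPKM of the other 14 pigs. Pearson r was 0.312 in pig 230-15 and 0.559 in pig 223-15, and Spearman rho 0.42 and 0.286. COX4I1, a nuclear subunit that takes part in regulation of the oxidase, was at 1198 FPKM in pig 230-15, and at 387, 437, 437 and 446 FPKM in the other No NEC pigs. In Co-NEC it was at 404, 418, 442, 415 and 373 FPKM. In Si-NEC the lowest was 368, the median 441 and the highest 825 FPKM, the last in pig 223-15. The ratio to the own group was 2.74 in pig 230-15, the largest in the complex, and 1.94 in pig 223-15. COX7A2L, which helps to join complexes III and IV into supercomplexes, was at 317 and 255 FPKM in the pair and 97.0 to 172 FPKM elsewhere. NDUFA4 was at 1649.6 and 1572 FPKM against 715 to 922 FPKM. Across the 35 members, the log2 ratios of the 2 pigs had a Pearson r of -0.08 and a Spearman rho of 0.357. Both are given as a description, over members that share the same 2 libraries. They include NDUFA6, whose ratio was the largest of all members in pig 230-15, 3.15, and the smallest in pig 223-15, 0.176. The correlation was not computed without it.

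**Figure D2:**
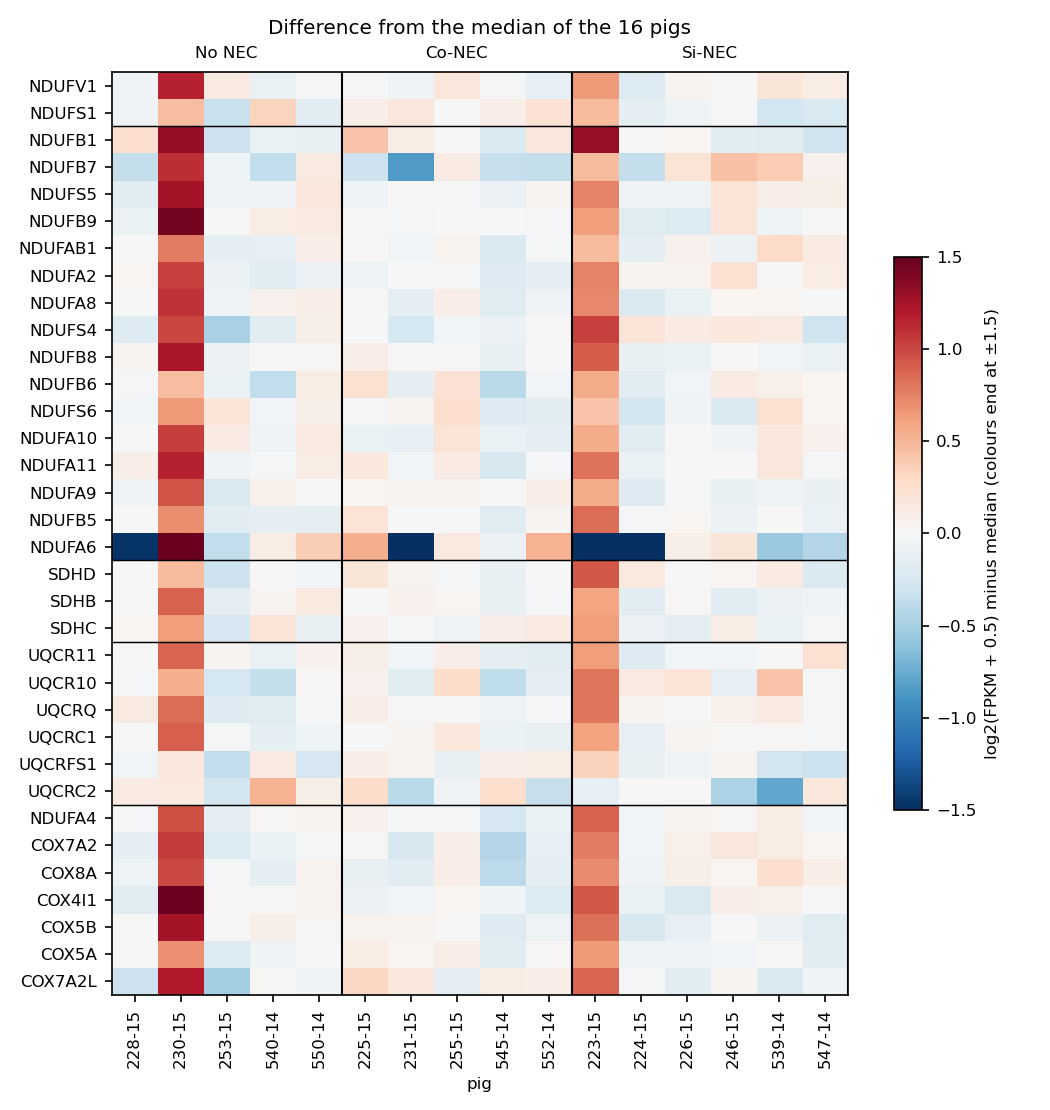
The log2(FPKM + 0.5) of 34 of the 35 members in each pig minus the member's median over the 16 pigs, with vertical lines between the groups and horizontal lines between complex I core, complex I accessory, complex II, complex III and complex IV, from top to bottom. The columns of pigs 230-15 and 223-15 are red for nearly every member, NDUFA6 is blue in pig 223-15 and UQCRC2 is pale in both.

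Outside these 2 pigs the members were steady. The standard deviation of log2(FPKM + 0.5) over all 16 pigs had a median of 0.33 for the members, 0.29 for all genes tested and 0.26 for the 4038 genes over 20 FPKM. Over the other 14 pigs these medians were 0.11, 0.21 and 0.17, so the members' median was the highest of the 3 over 16 pigs and the lowest over 14. The set over 20 FPKM was not matched to the members in level. The ratio of the highest to the lowest of the 14 pigs was under 1.5 for 24 of 35 members, and over 2 for NDUFA6, UQCRC2 (2.52) and NDUFB7 (2.45). Correlation between members fell likewise: the median Pearson r over the 595 pairs of members was 0.838 over 16 pigs and 0.206 over 14 pigs, against 0.0221 and 0.0167 over pairs of all genes tested. These correlations are given as a description, since all pairs share the same libraries.

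The genes next to the complexes in the pathway were counted in the same 2 pigs. The 6 ATP synthase genes measured, of 18 listed, had median ratios to the own group of 2.18 in pig 230-15 and 1.70 in pig 223-15, close to those of complexes I and IV, and 0.835 to 1.15 in the other 14 pigs. ATP5MC3, which encodes the ring subunit c, was at 415 and 310.1 FPKM against 126 to 187 FPKM. Assembly factors (20 of 42 genes) had median ratios of 1.44 and 1.26, and COX17, which carries copper to complex IV, was at 269 and 244 FPKM against 95.1 to 156 FPKM. Electron carrier genes (12 of 14, with CYCS for cytochrome c and the ubiquinone synthesis genes) had ratios of 1.47 and 1.56. Tricarboxylic acid cycle genes (11 of 13) had 1.42 and 1.44. The regulators of mitochondrial biogenesis (7 of 13) split, with 1.30 in pig 230-15 and 0.868 in pig 223-15. Within them ESRRA, a nuclear receptor that acts on respiratory genes, was at 179.6 and 137 FPKM against 79.1 to 96.0 FPKM in the other 14, while PPARGC1B, a coactivator of the same family as PPARGC1A, which was listed at 0 in all pigs, was at 1.29 and 1.5 FPKM against 2.47 to 4.22 FPKM. The genes singled out in these lists were chosen after their values were seen.

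Cell type markers moved in both pigs as well. The 5 microglia markers measured of 9 listed (C1QA, CSF1R, CX3CR1, ITGAM, P2RY12) had median ratios of 1.53 in pig 230-15 and 2.06 in pig 223-15, against 0.627 to 1.42 in the other 14 pigs, with summed levels of 105 and 119.6 FPKM against 40.9 to 80.5 FPKM. By group their summed level ran from 46.9 to 105 FPKM in No NEC, from 49.7 to 80.5 FPKM in Co-NEC and from 40.9 to 119.6 FPKM in Si-NEC. In pig 230-15 only C1QA lay outside the other 14 pigs, at 59.1 FPKM against 18.9 to 32.6 FPKM. CSF1R, CX3CR1, ITGAM and P2RY12 lay within their range in that pig. In pig 223-15 all of the microglia markers but CSF1R lay above it. The summed levels were not scaled to the larger FPKM totals of these 2 pigs. The 4 endothelial markers measured of 7 (FLT1, KDR, PECAM1, TEK) had a median ratio of 0.469 and a sum of 11.4 FPKM in pig 230-15. In the other 14 the ratios were 0.709 to 1.51 and the sums 19.3 to 34.9 FPKM. FLT1 and KDR lay below the other 14 pigs in pig 230-15, while PECAM1 and TEK lay within their range, near its lower end. In pig 223-15 the 3 astrocyte markers (GFAP, GJA1, SLC1A3) had a median ratio of 1.57, above the 0.754 to 1.24 of the other 14. GFAP and GJA1 lay above the other 14 pigs there, and SLC1A3 lay within their range. The 4 hippocampal neuron markers (FIBCD1, NEUROD1, PROX1, ZBTB20) had a median ratio of 0.621 in that pig, below the 0.789 to 1.25 of the other 14. Only FIBCD1 lay below the other 14 pigs, at 37.5 FPKM against 51.7 to 102 FPKM. NEUROD1, PROX1 and ZBTB20 lay within their range. The 7 neuron markers had median ratios of 1.12 and 1.04, within the 0.787 to 1.14 of the other 14, but their summed levels of 3138 and 2717 FPKM were above the 2075 to 2548 FPKM of the other 14. These sums, too, were not scaled to the larger FPKM totals of the pair. STMN2, a neuronal microtubule regulator, was at 1237 and 1133 FPKM against 623 to 933 FPKM. It was the 1 neuron marker at least 1.5-fold above the own group in either pig. The ratios of the other neuron markers ran from 0.726 (GAD2) to 1.38 (NEFL) in pig 230-15. In pig 223-15 they ran from 0.761 (GAD2) to 1.30 (MAP2). Median ratios also lay within the range of the other 14 for oligodendrocyte markers (1.61 and 1.19), oligodendrocyte precursor markers (0.713 and 0.973), mural and meningeal markers (0.667 and 1.29), choroid plexus markers (0.909 and 1.28) and erythroid markers (0.349 and 1.58). Of the astrocyte markers listed, ALDH1L1 was listed at 0 in all 16 pigs. The part of these markers in the levels of the respiratory genes was not tested.

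**Figure D3:**
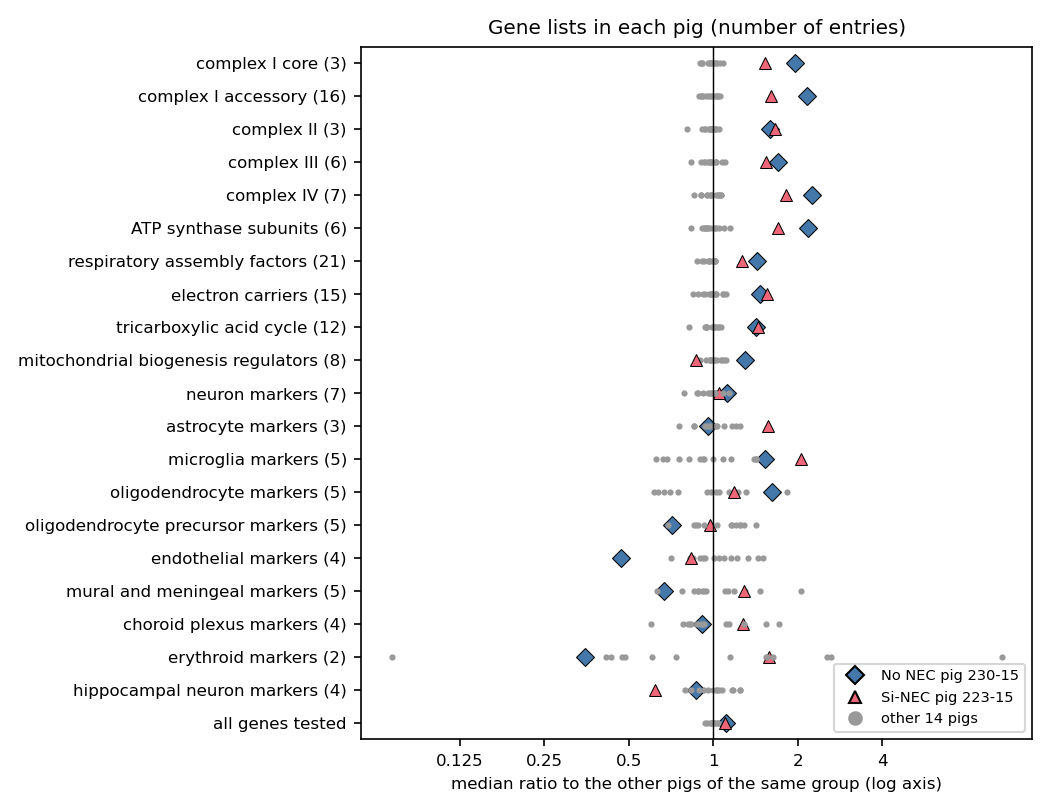
Median ratio (log axis) of each gene list in each pig to the median of the other pigs of its own group, with the number of rows measured in brackets. Pigs 230-15 and 223-15 lie to the right of the other 14 pigs for complexes I to IV, ATP synthase, assembly factors, electron carriers and tricarboxylic acid cycle genes, while all genes tested lie near 1 in every pig.

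Group comparisons were made with limma on log2(FPKM + 0.5) over all 13590 rows, and adjusted p-values are those of Benjamini and Hochberg over all rows. A call was an adjusted p under 0.2, and an unadjusted p under 0.05 was counted beside it. Each p-value sets a group difference against the spread between these pigs, with the pigs treated as independent. The comparisons of Si-NEC and of Co-NEC with No NEC share the 5 No NEC pigs.

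Between Si-NEC and No NEC pigs no respiratory gene passed the test. By limma, 0 of 35 members passed the adjusted threshold, against 0.00736% of all genes tested, and at an unadjusted p under 0.05 there were 0 as well, against 2.61%. Both groups overlapped for every member, as they did for all but 0.155% of genes. The log2 fold change was above 0 for 12 of 35 members, against 53.8% of all genes tested, with a median of -0.06 for the members and 0.02 for all genes. This count turned with 1 pig: it was 32 of 35 with a median of 0.13 without pig 230-15, against 59% of all genes, and 3 of 35 with a median of -0.17 without pig 223-15, against 47.9%. By complex the medians were -0.10 for complex I, -0.03 for complex II, -0.02 for complex III and -0.0034 for complex IV.

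The smallest p-values of this comparison belonged to UQCRC2 and NDUFA6. UQCRC2 was at 33.1, 33.4, 24.8, 43.8 and 32.3 FPKM in No NEC, and had a lowest of 17.4, a median of 29.0 and a highest of 34.0 FPKM in Si-NEC. The groups overlapped, with a log2 fold change of -0.32 (SE 0.19), an exact two-sided permutation p of 0.147 over 462 splits and an adjusted limma p of 1. Mean NDUFA6 was 9.88 ± 7.63 FPKM (SD, n = 5) for No NEC and 5.18 ± 3.15 FPKM (SD, n = 6) for Si-NEC, a log2 fold change of -0.82 (SE 0.56) that was -0.12 (SE 0.43) without both pigs. UQCR10, a small subunit of complex III, had the largest positive value, 0.25 (SE 0.20), at 260.3 ± 69.0 FPKM (SD, n = 5) and 309.8 ± 77.9 FPKM (SD, n = 6). For each of the 3, the pigs of both groups lay over each other.

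Without pigs 230-15 and 223-15, the log2 fold change of Si-NEC over No NEC was above 0 for 17 of 35 members, against 55.1% of all genes, and the members' median was -0.01. An unadjusted p under 0.05 was reached by 3 members, COX7A2 and NDUFA2 higher in Si-NEC and COX5B lower, against 3.3% of all genes tested (2.15% higher and 1.15% lower). COX5B, a subunit on the matrix side of complex IV, was at 315, 315, 334 and 319.6 FPKM in the remaining No NEC pigs, while the 5 Si-NEC values ran from 266 to 314 FPKM. The groups did not overlap, which held for 0.964% of all genes, though the nearest values lay side by side. COX5B had a log2 fold change of -0.16 (SE 0.07), with an exact two-sided permutation p of 0.0159 and an adjusted limma p of 1. COX7A2 was at 522 ± 28.1 FPKM (SD, n = 4) and 595 ± 31.0 FPKM (SD, n = 5), a log2 fold change of 0.19 (SE 0.07).

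Between Co-NEC and No NEC pigs, 0 of 35 members passed the adjusted threshold in limma, against 0.00736% of all genes, and at an unadjusted p under 0.05 there were again 0, against 3.44%. No member was without overlap, against 0.464% of all genes. Most members nonetheless had a lower mean in Co-NEC. The log2 fold change was above 0 for 3 of 35 (COX7A2L, NDUFS1 and UQCRFS1), against 52% of all genes tested, and its median was -0.18 for the members and 0.01 for all genes. By complex the medians were -0.23 for complex I, -0.06 for complex II, -0.13 for complex III and -0.25 for complex IV.

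The lean towards lower values was not seen without pig 230-15. With that pig left out, 18 of 35 members were above 0, against 57% of all genes, and the median was 0.01. Mean COX4I1 was 581 ± 346 FPKM (SD, n = 5) for No NEC and 411 ± 24.9 FPKM (SD, n = 5) for Co-NEC, a log2 fold change of -0.35 (SE 0.27). Without pig 230-15 No NEC stood at 427 ± 26.6 FPKM (SD, n = 4) and the log2 fold change was -0.06 (SE 0.07). NDUFB7 had the smallest p, with 335, 920.2, 409.6, 329.9 and 471 FPKM in No NEC and 345, 236, 466, 335 and 332 FPKM in Co-NEC. The groups overlapped, with a log2 fold change of -0.44 (SE 0.28), an exact two-sided permutation p of 0.23 over 252 splits and an adjusted limma p of 0.812. NDUFA10, NDUFA8, COX8A and COX5B followed, with log2 fold changes of -0.30, -0.28, -0.30 and -0.30, and -0.10, -0.07, -0.10 and -0.06 without the pig.

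COX7A2L was the 1 member with an unadjusted p under 0.05 in this comparison once pig 230-15 was left out, against 4.26% of all genes and 2.68% in its direction. It was at 112, 97.0, 141 and 134 FPKM in the other No NEC pigs and at 172, 156, 125, 149 and 149 FPKM in Co-NEC. All but 1 of the Co-NEC values were above those of No NEC. This gave a log2 fold change of 0.32 (SE 0.12), with an exact two-sided permutation p of 0.0635 and an adjusted limma p of 0.806.

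Between Si-NEC and Co-NEC pigs the members leaned higher in Si-NEC, and 3 of them had an unadjusted p under 0.05. By limma 0 of 35 passed the adjusted threshold, against 0.0147% of all genes. The 3 were COX8A, NDUFA2 and NDUFB7, all higher in Si-NEC, where 5.64% of all genes had such a p and 3.25% in this direction. The log2 fold change was above 0 for 29 of 35 members, against 50.1% of all genes tested, with a median of 0.13 for the members and 4.8e-05 for all genes. It was above 0 for 16 of 19 members of complex I, 3 of 3 of complex II, 4 of 6 of complex III and 6 of 7 of complex IV.

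NDUFB7 had the largest positive difference. Its Co-NEC values were 345, 236, 466, 335 and 332 FPKM and its Si-NEC values 595, 334, 494, 579, 555 and 446 FPKM, so 4 of 6 Si-NEC values exceeded all those of Co-NEC, and pigs 224-15 and 547-14 lay among the Co-NEC values. NDUFB7 had a log2 fold change of 0.55 (SE 0.18), with an exact two-sided permutation p of 0.026 over 462 splits and an adjusted limma p of 0.851. Without pig 223-15 it was 0.50 (SE 0.19) and the exact permutation p 0.0635. NDUFA2, an accessory subunit of the matrix arm of complex I, was at 116, 122, 121, 108 and 112 FPKM in Co-NEC, and in Si-NEC had a lowest of 124, a median of 130.4 and a highest of 207 FPKM. It was the 1 member whose groups did not overlap, which held for 0.545% of all genes. Its log2 fold change was 0.29 (SE 0.13), the exact two-sided permutation p 0.0108 and the adjusted limma p 0.867, and without pig 223-15 the difference was 0.18 (SE 0.06) and the groups still did not overlap.

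COX8A, a small subunit of complex IV, was at 506, 491, 587, 417 and 495 FPKM in Co-NEC and at 898, 528, 581, 558, 654 and 586 FPKM in Si-NEC. Only Co-NEC pig 255-15 lay within the Si-NEC range. The log2 fold change was 0.33 (SE 0.14), the exact two-sided permutation p 0.0281 and the adjusted limma p 0.867. Without pig 223-15 it was 0.22 (SE 0.09). Mean COX7A2 was 519 ± 75.8 FPKM (SD, n = 5) for Co-NEC and 657 ± 155 FPKM (SD, n = 6) for Si-NEC. Its log2 fold change of 0.32 (SE 0.15) did not reach an unadjusted limma p under 0.05. The exact two-sided permutation p of COX7A2 was 0.0498, and 0.0714 without pig 223-15.

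The lean towards Si-NEC was not seen without pig 223-15. With that pig left out, 17 of 35 members were above 0 and 46.6% of all genes were, and the members' median was -0.0027. An unadjusted p under 0.05 was then reached by 7 members, against 8.86% of all genes (4.2% higher and 4.66% lower): COX8A, NDUFA2 and NDUFB7 were again higher in Si-NEC, and COX7A2L, NDUFA9, NDUFS1 and UQCRFS1 were lower. NDUFS1 was at 39.5, 41.3, 36.8, 39.4 and 42.7 FPKM in Co-NEC and at 33.4, 35.3, 36.7, 29.9 and 31.3 FPKM in the other 5 Si-NEC pigs. The groups did not overlap, nor did those of NDUFA2 and NDUFA9, which held for 1.21% of all genes. The log2 fold change of NDUFS1 was -0.26 (SE 0.07), with an exact two-sided permutation p of 0.00794, the smallest that 252 splits allow, and an adjusted limma p of 0.521. With pig 223-15 in, at 51.1 FPKM, it was -0.16 (SE 0.12). NDUFA9, named after its values were seen, had -0.15 (SE 0.05), and UQCRFS1 -0.19 (SE 0.08).

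**Figure D4:**
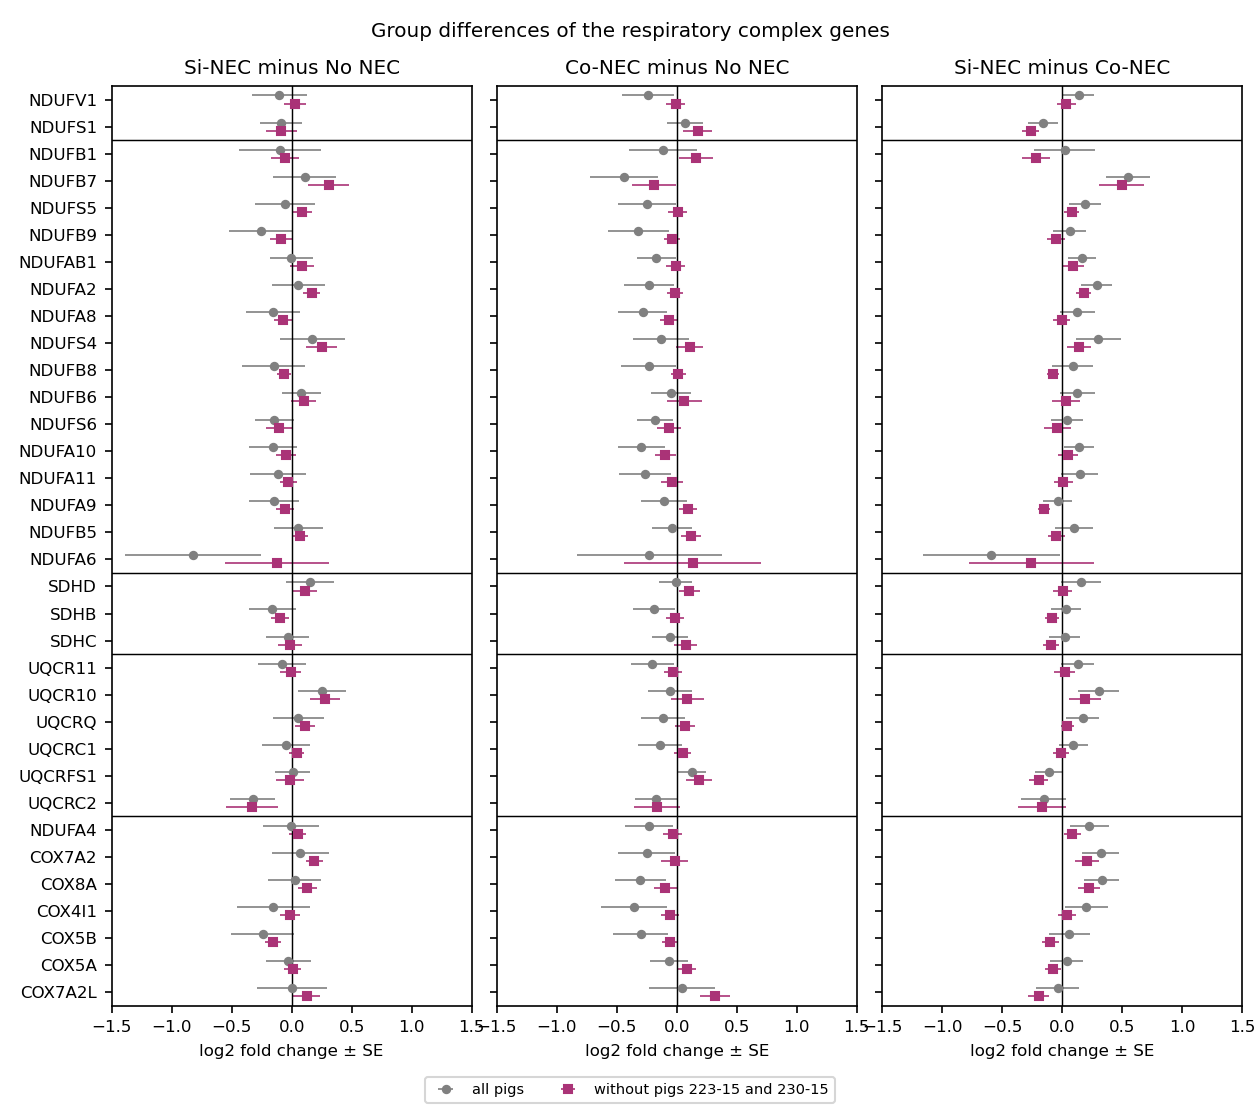
Log2 fold change ± SE (limma) of 34 of the 35 members in the 3 comparisons, with all pigs (grey circles) and without pigs 223-15 and 230-15 (purple squares), complexes set off by lines in the order complex I core, complex I accessory, II, III and IV. With all pigs the values lie mostly below 0 for Co-NEC minus No NEC (3 of the 34 plotted above) and above 0 for Si-NEC minus Co-NEC (28 of 34 above), and without the pair they lie around 0, mostly with smaller SE.

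Whether these counts moved depended on how the pigs were scaled to each other. Rescaling by the median of ratios changed them little. It left 11 of 35 members above 0 for Si-NEC over No NEC, against 52.5% of all genes. For Co-NEC over No NEC it left 3 of 35, against 51.1%, and for Si-NEC over Co-NEC 29 of 35, against 50.1%. With each pig rescaled to the same summed FPKM, the members above 0 were 10 of 35 for Si-NEC over No NEC, 12 of 35 for Co-NEC over No NEC and 14 of 35 for Si-NEC over Co-NEC, against 50.4%, 72.2% and 23.1% of all genes. The members' medians were then -0.07, -0.06 and -0.01, and the medians of all genes 0.0012, 0.12 and -0.13. Relative to the median of all genes, the members' median moved little with this rescaling: it was lower by 0.07 before and after for Si-NEC over No NEC, went from -0.19 to -0.18 for Co-NEC over No NEC and from 0.13 to 0.11 for Si-NEC over Co-NEC. After rescaling to the same summed FPKM, 4 members had an unadjusted p under 0.05 in Si-NEC over Co-NEC. NDUFB7 was higher and NDUFA9, NDUFS1 and UQCRFS1 were lower, against 10.8% of all genes (1.14% higher and 9.65% lower). Pig numbers end in 14 or 15, a suffix whose meaning the labels do not give, and both pigs that stood apart have the suffix 15. Within suffix 14 the members' median log2 fold changes were -0.0013, -0.08 and 0.10 for the 3 comparisons in that order, and within suffix 15 they were -0.13, -0.25 and 0.10. Within suffix 14, with 2 pigs a group, 11 members had an unadjusted p under 0.05 in Si-NEC over Co-NEC, against 19.4% of all genes. Of these, COX8A, NDUFA10, NDUFA2, NDUFAB1, NDUFB7, NDUFS6 and NDUFV1 were higher in Si-NEC, against 7.87% of all genes, and COX7A2L, NDUFA6, NDUFS1 and UQCRFS1 were lower, against 11.6%. In Si-NEC over No NEC 1 member, NDUFA6, had such a p within suffix 14, against 5.44% of all genes, and within suffix 15 there were 0 in each comparison. No member passed the adjusted limma threshold within either suffix.

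The neighbouring genes gave no calls either. In limma none of the ATP synthase, assembly factor, electron carrier, tricarboxylic acid cycle or biogenesis genes passed the adjusted threshold in the 3 comparisons. An unadjusted p under 0.05 was reached by 1 assembly factor row in Co-NEC over No NEC and by 1 in Si-NEC over Co-NEC, where 3.44% and 5.64% of all genes had one, and by 0 rows of the other 4 lists. For ATP synthase the median log2 fold change was -0.19 for Si-NEC over No NEC, -0.22 for Co-NEC over No NEC and -0.01 for Si-NEC over Co-NEC, with 0, 0 and 3 of 6 genes above 0. Without pigs 230-15 and 223-15 these medians were -0.07, -0.01 and -0.14, with 0, 2 and 0 of 6 genes above 0. An unadjusted p under 0.05 was then reached by 3 of the 6 ATP synthase genes in Si-NEC over Co-NEC, all lower in Si-NEC, and by 2 tricarboxylic acid cycle rows and 1 electron carrier row, also lower, and 2 assembly factor rows, higher, against 8.86% of all genes. In Si-NEC over No NEC it was reached by 1 ATP synthase gene, lower, and 1 assembly factor row, higher, against 3.3%, and in Co-NEC over No NEC by 2 assembly factor rows and 1 biogenesis row, all higher, against 4.26%. None of these rows passed the adjusted threshold.

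The group differences of the members were also compared between females and males, with an interaction term in limma. For Si-NEC over No NEC 0 of 35 members passed the adjusted threshold, against 0.00736% of all genes, and 3 reached an unadjusted p under 0.05, against 10.8%. These were COX7A2L, NDUFS1 and NDUFS4, the last named after its value was seen. For Co-NEC over No NEC no member did at either level, against 0% and 2.47% of all genes. The No NEC females numbered 2, 1 of the 3 No NEC males was pig 230-15, and 1 of the 3 Si-NEC females was pig 223-15. Without both pigs, a setting chosen after seeing the data, COX7A2L alone kept an unadjusted limma p under 0.05 for Si-NEC over No NEC. The share of all genes was then 7.06%.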

How the data were processed

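RNA-seq libraries from the left hippocampi of 16 pigs were analysed, with group and sex from the labels. The deposited values are FPKM per gene, estimated by the authors after read trimming and alignment. The submitters' processing notes name TopHat2 2.1.1, Cufflinks 2.2.1 and Sscrofa10.2. Depth and counting error could not be computed from these values, and no scaling between pigs is given in the sources used here. Of 24594 rows, 1779 identical ones were dropped, and 13590 of 22815 with a mean of at least 0.5 FPKM were tested. Identifiers were named through a table of Ensembl symbols. Pairwise fits used limma 3.58.1 in R 4.3.3 on log2(FPKM + 0.5) with a trended variance, Benjamini-Hochberg adjustment over all rows and a threshold of 0.2. A fold change on this scale understates the change of low genes. Single members were also tested by exact two-sided permutation over pigs (Python 3.11.15, scipy 1.17.1). The fits were tested on simulated data. The planted changes were larger than those of the members in the main fits and lay in genes of below-median spread. No simulated pig stood apart, so this test does not bear on small differences of the members. Ratios of a pig are to the median of the other pigs of its group. Named genes were the members with set roles (complex II, complex I core, UQCRFS1 and isoform pairs), the most and least abundant of each complex, the 5 with the smallest p and those without overlap in each comparison, the 5 with the largest and 3 with the smallest spread, and those listed at 0. Of the 35 members, 1 is counted but not reported here by itself. Members, lists and the pair of pigs left out were chosen with earlier results of these data known. Promoter motifs were not searched, because no promoter sequence was used here. The alternatives tried were other offsets, filters, scalings, variance models and covariates, and leaving pigs out.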

Additional observations from a re-analysis of the deposited data

Results flagged for a closer look

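Dixon's test at the 95% level was applied to the highest and lowest pig of each group. It covered 23 named members with values and the summed level of all members. Chance gives about 1 in 20 groups for a member tested alone. The members share the same libraries, with a median Pearson r of 0.838 between members over 16 pigs. Some were named for their large spread or small p, and the pigs that stood apart were already known. The counts of members below are therefore a description and cannot be set against 1 in 20. No NEC pig 230-15 was set apart from the other No NEC pigs as the highest for 15 of the 23. In complex I these were NDUFV1 at 219.6 FPKM, NDUFA2 at 251, NDUFA8 at 259, NDUFA10 at 141, NDUFB1 at 1335, NDUFB7 at 920.2 and NDUFB9 at 502. In complexes II and III they were SDHB at 124 FPKM and UQCR11 at 612. In complex IV they were COX4I1 at 1198 FPKM, COX5B at 748, COX7A2 at 1172, COX7A2L at 317, COX8A at 1091 and NDUFA4 at 1649.6. The summed level of the 35 members in this pig, 14131.5 FPKM, was set apart as well.

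Si-NEC pig 223-15 was set apart from the other Si-NEC pigs as the highest for 13 of the 23. In complex I these were NDUFS1 at 51.1 FPKM, NDUFA2 at 207, NDUFA8 at 201 and NDUFB1 at 1326. All 3 complex II genes measured were among them, with SDHB at 101 FPKM, SDHC at 49.4 and SDHD at 138. In complex IV they were COX4I1 at 825 FPKM, COX5B at 559.5, COX7A2 at 968, COX7A2L at 255, COX8A at 898 and NDUFA4 at 1572, and no named member of complex III was. The summed level of the members was 11842.7 FPKM, against 5938.61 to 7277.74 in the 14 pigs other than this pair.

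In Co-NEC, NDUFA10 was set apart in pig 255-15, the highest at 79.2 FPKM.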

How the results depend on the processing

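No paired analysis was possible because each group held different pigs and the labels do not give the litter. In limma, 0 of 35 members passed an adjusted p of 0.2 in any comparison under any alternative, and the lowest adjusted p of a named member was 0.216. The spread between pigs of the members' median, 0.304 with the 2 pigs that stood apart included, was wider than each reported median, so a median within it says nothing about stability. Leaving out 1 pig at a time moved it from -0.17 to 0.13 for Si-NEC over No NEC, from -0.26 to 0.0056 for Co-NEC over No NEC and from -0.0027 to 0.16 for Si-NEC over Co-NEC. Counts of members with an unadjusted p under 0.05 changed more. For Si-NEC over No NEC the count was 3 without both pigs (3.3% of all genes), 1 within suffix 14 (5.44%) and 0 to 1 with 1 pig left out. For Co-NEC over No NEC it was 1 with array weights, 1 without both pigs (4.26%) and 0 to 1 with 1 pig left out. For Si-NEC over Co-NEC it was 1 with all 3 groups in one fit and 8 with array weights. It was 7 without both pigs (8.86%), 11 within suffix 14 (19.4%) and 0 within suffix 15. With 1 pig left out it was 1 to 7, being 7 without pig 223-15 (8.86%) and 1 without Co-NEC pig 225-15, 545-14 or 552-14. Where no share of all genes stands beside a count, the share is not given here. Such a count cannot be read as a result about the members. For the sex interaction of Si-NEC over No NEC the count was 1 after rescaling by the median of ratios (9.59% of all genes), and 1 without both pigs (7.06%). The latter and the counts within a suffix were chosen after seeing the data. The cause of these changes was not tested. With 5 or 6 pigs a group and no read counts, single members could be compared only against the spread between pigs.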

Other observations

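Other members, named after their values were seen, showed the same picture at other levels. NDUFB8, an accessory subunit of complex I, was at 182 FPKM in pig 230-15 and 146 FPKM in pig 223-15, and between 71.5 and 83.3 FPKM in the other 14 pigs, the narrowest relative range of any member. UQCRC1, the partner of UQCRC2 in the core of complex III, was at 214 and 174 FPKM against 104 to 127 FPKM, whereas UQCRC2 was at 33.4 and 27.8 FPKM against 17.4 to 43.8 FPKM. NDUFS4, an accessory subunit at the matrix arm, was at 218 and 223 FPKM against 77.9 to 125 FPKM. NDUFAB1, which also serves as the mitochondrial acyl carrier protein, was at 239 and 196 FPKM against 121 to 172 FPKM. COX5A, another nuclear subunit of complex IV, was at 399 and 387 FPKM against 216 to 269 FPKM.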
